A study of Oryza sativa with 36 samples.

Results

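The comparison described here sets leaves of AgBi plants against leaves of Ag plants, across all genes. Its members are 4 of the 18 RNA-seq libraries of the series, AgBi replicates 1 and 2 and Ag replicates 1 and 2, chosen by their labels and not by any measured value. All 4 libraries come from japonica rice (Oryza sativa) of the line TNG67. Both groups belong to a series in which calli received differing sets of transformation treatments and plants were raised from them. The plants stood in a greenhouse under natural light until tillering, when leaves were taken. The names AgBi and Ag are kept as the labels write them, since the sources used here do not spell out what Ag or Bi stands for, and the treatments that both groups share are likewise not listed. Whether a library holds the leaf of 1 plant or of several, how many independent regeneration events a group covers, and which of the RNA extraction methods named in the labels served which library are not given either. The labels do not state outright that AgBi and Ag plants grew from calli rather than seed, so this is taken from how the protocols describe growth and treatment.

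In rice transformation, dividing callus is grown from mature seed, foreign DNA is brought into its cells, and shoots are induced from the callus by plant hormones and selected. A plant raised in this way passes through a dedifferentiated stage that a seed-grown plant does not. Passage through tissue culture is known in rice to leave altered DNA methylation and to wake some transposable elements, the retrotransposon Tos17 among them, and plants raised from the same culture can differ from each other.

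The deposited tables list 55986 genes by locus identifier. Names could be matched for 1 identifier only, LOC_Os01g19850 (OsCCC2 or KCC2 among the RefSeq synonyms), so genes are given by identifier and chromosome, and neither a tissue check by leaf marker genes nor a count over named pathways could be made. OsCCC2, a member of the cation-chloride cotransporter family, was at 0.979 and 0.541 CPM (counts scaled to library size with TMM factors, which are trimmed means of log ratios between libraries) in AgBi replicates 1 and 2, against 0.681 and 0.59 CPM in Ag replicates 1 and 2. The groups overlapped at this low level, and the log2 fold change of 0.26 had an SE of 0.67 (edgeR adjusted p = 0.808).

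The AgBi libraries held 30605151 and 33222427 counts and the Ag libraries 28754494 and 30740453. At these depths, 3 counts correspond to between 0.0804 and 0.113 CPM, so differences between levels under about that size were not detectable. The Spearman correlation between an AgBi and an Ag library lay between 0.8887 and 0.9031 across 26374 tested genes, below the 0.9562 within AgBi and the 0.9523 within Ag. Genes are not independent replicates, so these coefficients are descriptions. The 2 AgBi libraries were closest to each other among all 18, though AgBi replicate 2 was almost as close to PB replicate 1 (0.9551). The Ag libraries were not closest to each other. Ag replicate 1 was closest to AMT+Hb replicate 2 (0.9671) and Ag replicate 2 to AgTi replicate 1 (0.9848). Some results below are therefore also given with 1 AgBi or Ag library left out.

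AgBi leaves differed widely from Ag leaves. Of the 26374 genes tested, 3280 were higher and 3404 lower in AgBi at an adjusted p below 0.05 (edgeR quasi-likelihood test fitted over all 9 groups, Benjamini-Hochberg adjustment), which is 25.3% of tested genes in all, 12.4% higher and 12.9% lower. Among the higher genes the median log2 fold change was 1.63 (interquartile range 1.13 to 2.60), and among the lower genes it was -1.73 (-2.46 to -1.23). Over all tested genes the median was -0.01. Called and over 2-fold higher were 2757 genes (10.5% of those tested), over 4-fold higher 1273 (4.83%) and over 8-fold higher 606 (2.3%). Called and over 2-fold lower were 2971 (11.3%), over 4-fold lower 1338 (5.07%) and over 8-fold lower 479 (1.82%). In bulk leaf RNA, fewer cells of a type and less RNA per cell cannot be told apart. The plot of mean levels shows both sets across the whole range of expression.

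**Figure D1:**
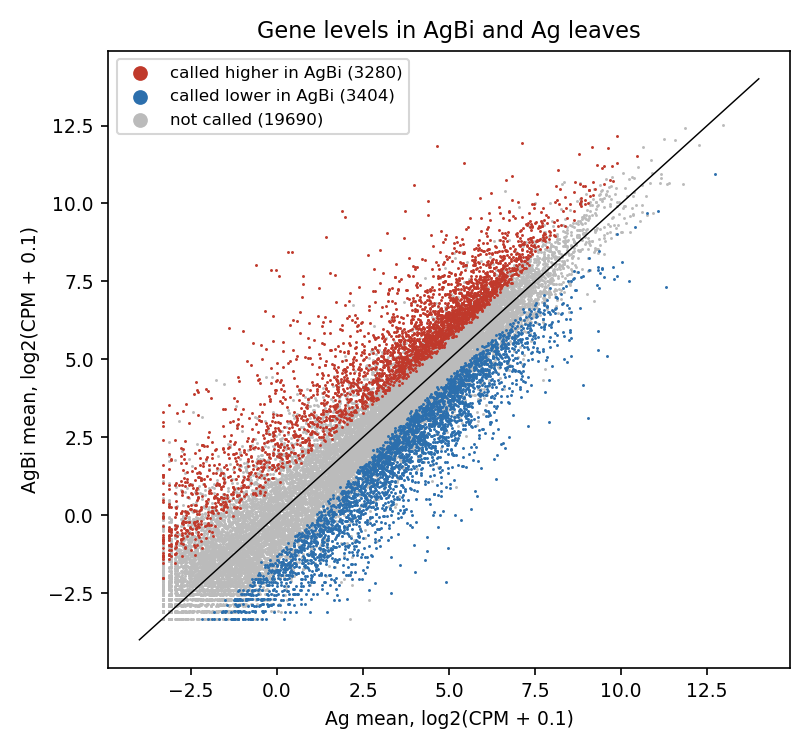
Mean level of each tested gene in AgBi (y axis) and Ag (x axis), as log2(CPM + 0.1), with genes called higher in AgBi in red, genes called lower in blue and the rest in grey; the line marks equal levels. The 3280 higher and 3404 lower genes lie on both sides of the line from low to high levels.

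The 2 libraries of each group did not overlap for 3243 of the 3280 higher genes and for 3403 of the 3404 lower ones. Over all tested genes, called or not, AgBi lay wholly above Ag for 28.1% and wholly below for 29.8%, so lack of overlap by itself is common here. A stricter description asks that the lowest AgBi library be at least 2-fold over the highest Ag library and at 1 CPM or more, which held for 1609 genes (6.1%). The reverse, with the lowest Ag library at 1 CPM or more and at least 2-fold over the highest AgBi library, held for 1867 genes (7.08%). At the other end, 4167 genes (15.8%) had a 95% interval of the log2 fold change that lay entirely between -1 and 1, so a change of 2-fold or more lay outside their intervals.

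With 2 libraries a group, an exact permutation test of a single gene cannot give a two-sided p below 0.333, so every call rests on the spread pooled over groups. A group left with 1 library borrows its spread from the other 8 groups. With 1 library left out in this way, a new fit was made over 28123 to 28153 genes, so its calls are not a subset of the 6684. The count that follows was taken among the 6684 only and covers a minority of them. A total of 1786 genes, 824 higher and 962 lower, were called in the same direction in all 4 of these fits. None of the 6684 genes was called in the opposite direction in any of them.

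Genes were named from those called, with a mean log2 CPM of at least 1 over the 18 libraries and no overlap between the groups. Called genes outside these limits reached fitted log2 fold changes of 11.39 and -8.17, both in genes with 0 counts in both libraries of the lower group, where the fitted value is no bound. Within them, the 2 higher genes with the largest fold changes rested largely on 1 of the AgBi libraries. LOC_Os02g15930 on chromosome 2 was at 5.95 and 690.1 CPM in AgBi replicates 1 and 2, against 1.23 and 1.07 CPM in Ag replicates 1 and 2. LOC_Os03g16030 on chromosome 3 was at 4.18 and 457.7 CPM in AgBi, against 1.02 and 0.536 CPM in Ag. In both genes the AgBi libraries lay above the Ag libraries but over 100-fold apart from each other (116-fold and 109.5-fold). The fitted log2 fold change was 8.24 (SE 1.67, adjusted p = 0.00523 by edgeR) for LOC_Os02g15930 and 8.22 (SE 1.76, edgeR adjusted p = 0.00694) for LOC_Os03g16030. Without AgBi replicate 2 these were 2.36 (edgeR adjusted p = 0.0577) and 2.43 (edgeR adjusted p = 0.117), and without AgBi replicate 1 they were 9.22 and 9.21. Both calls also ended without Ag replicate 1 (edgeR adjusted p = 0.0518 and 0.0562), and that of LOC_Os03g16030 without Ag replicate 2 (edgeR adjusted p = 0.0509). With only AgBi and Ag in the fit, neither gene was called (edgeR adjusted p = 0.176 and 0.178).

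Within the same limits, the 2 lower genes with the largest fold changes differed far less between the libraries of a group than between the groups. LOC_Os01g65140 on chromosome 1 was at 0.565 and 0.203 CPM in AgBi replicates 1 and 2, against 37.5 and 25.5 CPM in Ag replicates 1 and 2. The AgBi libraries were 2.78-fold apart and the lowest Ag library 45.2-fold over the highest AgBi library, with a log2 fold change of -6.36 (SE 0.56, edgeR adjusted p = 8.94e-05). Without AgBi replicate 1 the log2 fold change was -7.26. LOC_Os11g38160 on chromosome 11 was at 0.226 and 0.304 CPM in AgBi, against 12.3 and 26.7 CPM in Ag. The Ag libraries were 2.17-fold apart and the gap between the groups was 40.5-fold. The log2 fold change came to -6.18 (SE 1.08, edgeR adjusted p = 0.00263), and it was -5.51 without Ag replicate 2. Both genes remained called without any 1 of the 4 libraries.

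Further genes were singled out within the same limits after their values were seen. They had the widest fold gaps between the nearest libraries of the 2 groups. LOC_Os06g51260 on chromosome 6 was at 48.7 and 78.6 CPM in AgBi replicates 1 and 2, against 0.341 and 0.214 CPM in Ag replicates 1 and 2. Its lowest AgBi library stood 143-fold over its highest Ag library. The log2 fold change was 7.85 with an SE of 0.97 (edgeR adjusted p = 0.000568). Similarly, LOC_Os08g06110 on chromosome 8 was at 549.5 and 423.7 CPM in AgBi, against 2.15 and 3.06 CPM in Ag, a gap of 139-fold with a log2 fold change of 7.54 (SE 0.90, edgeR adjusted p = 0.000486). In the lower direction LOC_Os09g04310 on chromosome 9 had the widest gap, at 0.866 and 0.71 CPM in AgBi, against 40.5 and 40.2 CPM in Ag. Its lowest Ag library was 46.4-fold over its highest AgBi library, with a log2 fold change of -5.67 (SE 0.64, edgeR adjusted p = 0.000393). These 3 genes remained called in each fit with 1 library left out.

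Some abundant transcripts within the same limits also differed widely between the groups. Among genes more than 8-fold higher in AgBi, LOC_Os01g41710 on chromosome 1 had the highest level, 3944 and 3833 CPM in AgBi replicates 1 and 2, against 193 and 82.5 CPM in Ag replicates 1 and 2. The AgBi libraries were nearly equal and the Ag libraries 2.34-fold apart (log2 fold change 4.82, SE 1.29, edgeR adjusted p = 0.0182). Its call ended without AgBi replicate 2 (edgeR adjusted p = 0.051), Ag replicate 1 (edgeR adjusted p = 0.0773, with a log2 fold change of 5.55) or Ag replicate 2 (edgeR adjusted p = 0.105). Among genes more than 8-fold lower, LOC_Os04g55710 on chromosome 4 had the highest level in Ag, with 152 and 167 CPM in AgBi, against 2664 and 2345 CPM in Ag. At a log2 fold change of -3.97 (SE 0.92) it was called with an edgeR adjusted p of 0.00962, but no longer without AgBi replicate 1 (edgeR adjusted p = 0.0592) or 2 (edgeR adjusted p = 0.066). Both genes were likewise chosen after their values were seen.

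**Figure D2:**
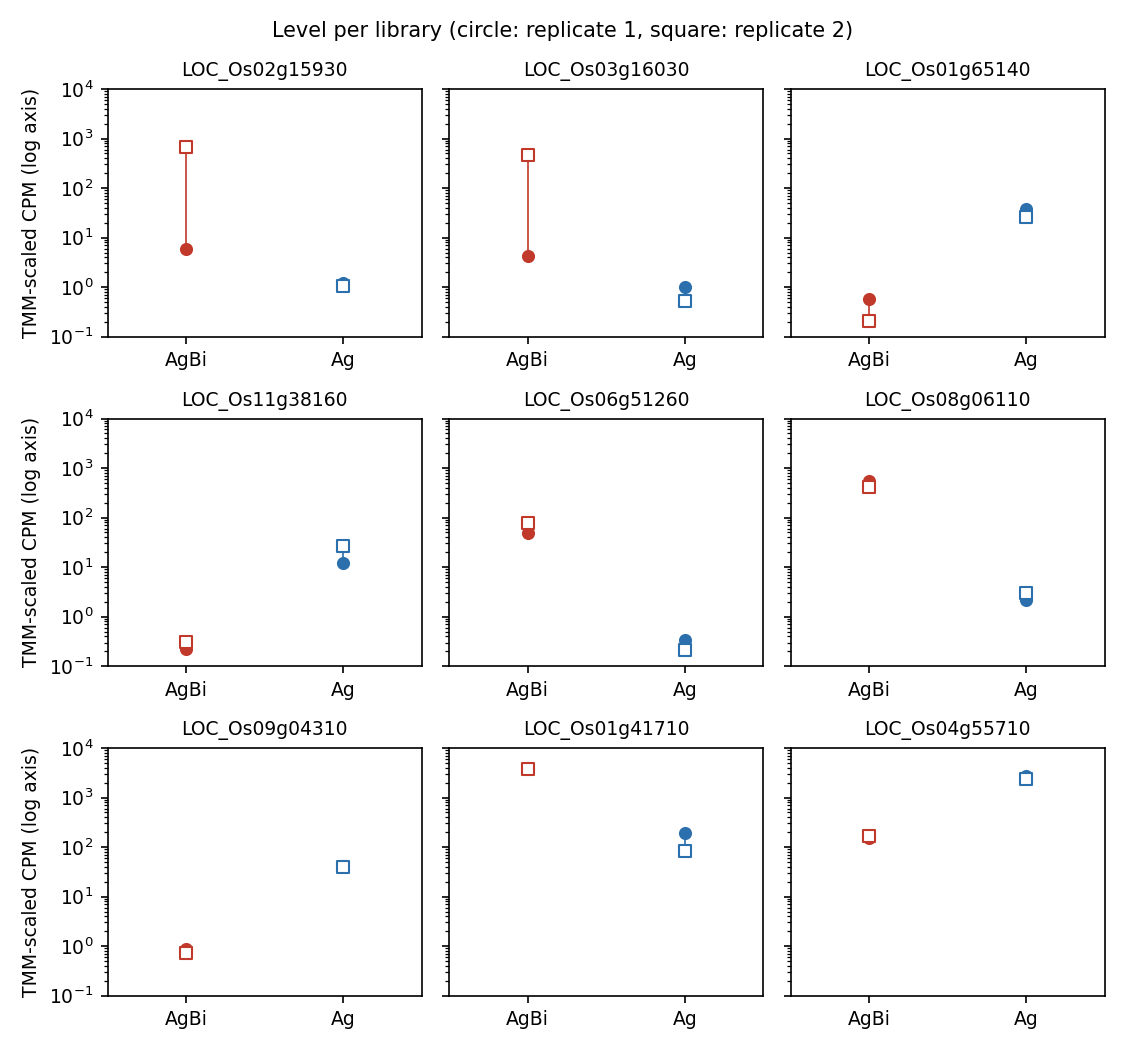
Level of 9 genes in each AgBi library (red, left) and each Ag library (blue, right) as TMM-scaled CPM on a log axis, with replicate 1 as a circle, replicate 2 as a square and a line joining the pair. In LOC_Os02g15930 and LOC_Os03g16030 the AgBi libraries are over 100-fold apart, whereas in the other 7 genes the 2 groups are each much tighter than the distance between them.

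A small set of genes was close to absent in one group. In 14 genes both AgBi libraries were at 1 CPM or more while the 2 Ag libraries together held at most 3 counts, and 12 of these were called higher, beside 12.4% of all tested genes. The requirement itself makes these genes differ, so their number is a description. Their mean AgBi level lay between 1.14 and 11.6 CPM. The highest, LOC_Os03g56930 (singled out, like the other gene named here, after its values were seen) on chromosome 3, was at 14.8 and 8.46 CPM in AgBi replicates 1 and 2, against 0 and 1 count in Ag replicates 1 and 2 (edgeR adjusted p = 0.00193). The ratio of the group levels was 774-fold, with a 95% exact Poisson interval of 139 to 30566 that covers counting error only. The opposite pattern was seen in 11 genes, each called lower (beside 12.9% of all tested genes), with mean Ag levels between 1.17 and 4.01 CPM. The highest of them, LOC_Os11g35450 on chromosome 11, was at 0.113 and 0 CPM in AgBi (3 counts in all), against 2.89 and 5.12 CPM in Ag. Its Ag level was 74.97-fold the AgBi level (95% interval 25.7 to 363.5, edgeR adjusted p = 0.00113).

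The difference between the groups moved with gene length. A relative length per gene was recovered from the ratio of the deposited counts to the deposited FPKM, a level scaled to gene length and depth, and the tested genes were split into 4 quartiles. The median log2 fold change of AgBi over Ag was -0.42 in the shortest quartile, -0.11 in the second, 0.05 in the third and 0.35 in the longest. In the shortest quartile 421 genes (6.38%) were called higher and 1132 (17.2%) lower. In the longest quartile 1309 (19.9%) were called higher and 516 (7.83%) lower. Among all tested genes the shares were 12.4% and 12.9%.

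Gene length separated the libraries unevenly. The median deviation from the mean of the 18 libraries, longest minus shortest quartile on the log2 scale, was 0.44 and 0.40 in AgBi replicates 1 and 2, against -0.61 and 0.02 in Ag replicates 1 and 2. Both AgBi libraries thus favoured long genes, Ag replicate 1 favoured short genes, and Ag replicate 2 lay near the average. Over the other 14 libraries this measure ranged from -0.88 in AMT+Ab replicate 2 to 0.60 in PB replicate 1. Without Ag replicate 1, the gap between longest and shortest quartiles in the median log2 fold change was 0.42, against 0.77 with all libraries. RNA quality and library preparation were not measured in these tables, and their part in this was not tested. When the trend with length was taken out of each library before the test, an alternative chosen after seeing the data, 3220 genes were higher and 2994 lower. Of the 6684 original calls, 5544 (82.9%) were among them in the same direction, and the calls of the 9 genes plotted by library above were kept.

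**Figure D3:**
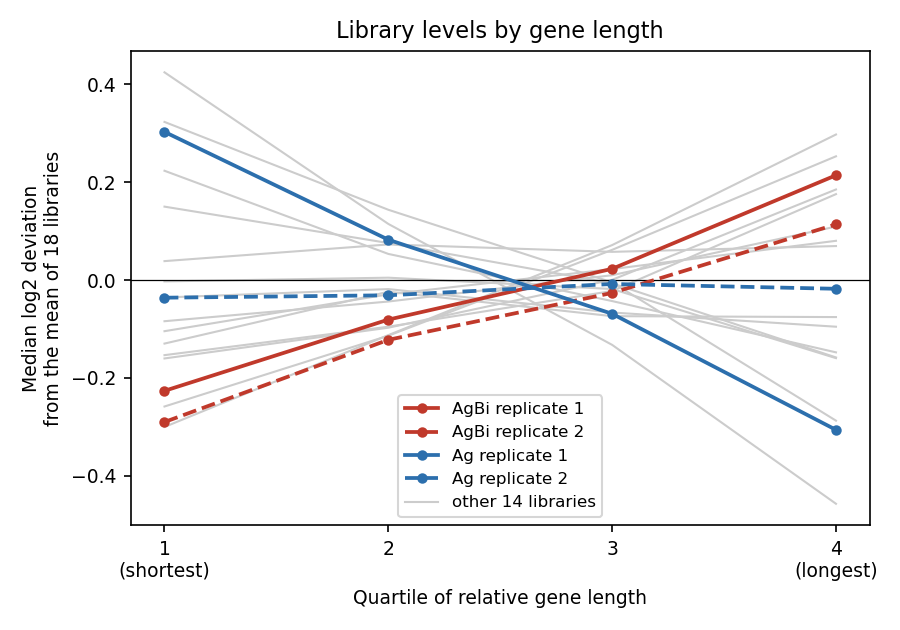
Median log2 deviation of gene levels from the mean of the 18 libraries (y axis) by quartile of relative gene length (x axis), 1 line per library, with AgBi in red, Ag in blue and the other 14 libraries in grey. The AgBi lines run from -0.23 and -0.29 in the shortest quartile to 0.21 and 0.11 in the longest, Ag replicate 1 runs from 0.30 to -0.31, and Ag replicate 2 stays between -0.04 and -0.01.

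Expression level and length were both related to direction. In the quartile of tested genes with the highest mean level, 23.1% were called higher and 9.52% lower, and the median log2 fold change was 0.25. In the second-lowest quartile of level the balance was the other way, with 8.48% called higher and 17.3% lower and a median of -0.28. The lowest quartile had a median of 0 (6.41% higher, 8.74% lower) and the third -0.07 (11.8% higher, 16.0% lower). Direction therefore did not move evenly with level. Within the highest quartile of level, the median log2 fold change was 0.61 for the longest genes and -0.41 for the shortest. Within the second-lowest quartile it was -0.02 for the longest and -0.49 for the shortest, so the difference by length was present at both levels.

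No chromosome stood far from the others. The share of tested genes called, beside 25.3% of all tested genes, was highest on chromosome 1 at 28.1% and lowest on chromosome 11 at 21.5%. Higher genes made up 14.7% of tested genes on chromosome 1 and 9.80% on chromosome 11. Lower genes ranged from 11.6% on chromosome 11 to 14.3% on chromosome 10. The median log2 fold change per chromosome lay between -0.08 on chromosome 10 and 0.05 on chromosome 3. In each of the 4 libraries, the median deviation of every chromosome from the mean of the 18 libraries lay between -0.16 and 0.04, so no library showed a whole-chromosome shift larger than that.

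**Figure D4:**
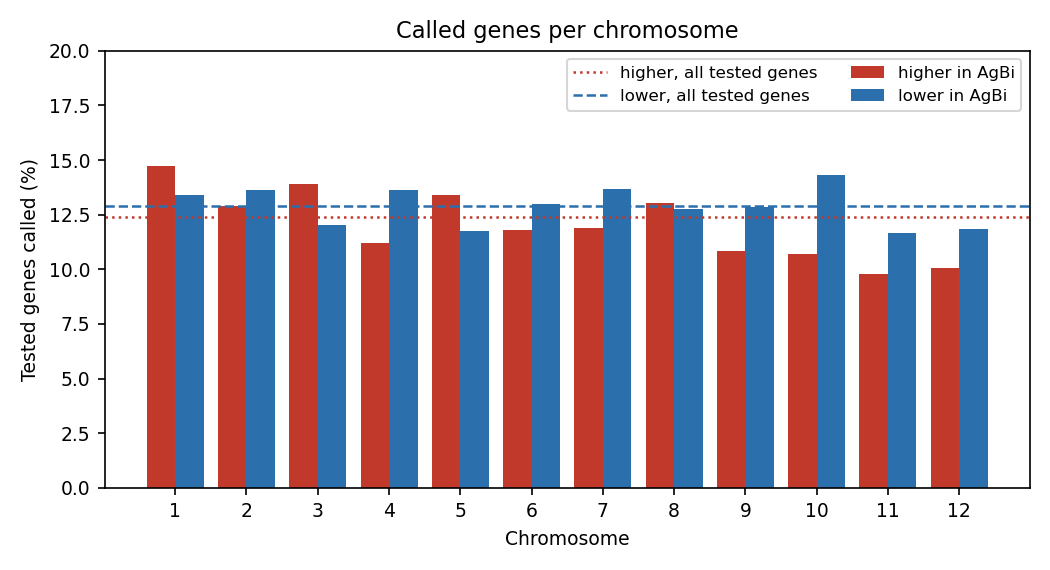
Share of tested genes called higher (red) or lower (blue) in AgBi than in Ag on each of the 12 chromosomes, with the shares over all tested genes as a dotted red line (12.4%) and a dashed blue line (12.9%). The bars range from 9.80% to 14.7%.

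Called genes lay side by side in a few places. In the order of the locus identifiers, 8 runs of 5 or more consecutive tested genes were all called in 1 direction, 5 runs higher and 3 lower, with 43 genes in all. The runs described below were picked after their values were seen. The number of runs depended on the libraries and the tool. It was 4 without AgBi replicate 1, 1 without AgBi replicate 2, 1 without Ag replicate 1 and 3 without Ag replicate 2, and 20 with DESeq2. The longest run held 7 genes on chromosome 5, LOC_Os05g10670 to LOC_Os05g10810, with log2 fold changes of 0.69 to 2.24. Their summed level was 363 and 635 CPM in AgBi replicates 1 and 2, against 179 and 231 CPM in Ag replicates 1 and 2.

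The run with the largest absolute median held 5 genes of low expression on chromosome 10, LOC_Os10g03720 to LOC_Os10g03760, with a median log2 fold change of -4.19. In AgBi replicates 1 and 2, LOC_Os10g03720 was at 0 and 0.0338 CPM, LOC_Os10g03750 at 0 and 0.0676 and LOC_Os10g03760 at 0 and 0. These levels are under 3 counts, so the fitted fold changes of these genes rest on almost no AgBi counts. The 5 genes summed to 0.64 and 0.71 CPM in AgBi replicates 1 and 2, against 4.39 and 7.504 CPM in Ag replicates 1 and 2. Another lower run, LOC_Os01g65130 to LOC_Os01g65190 on chromosome 1, contained LOC_Os01g65140, described above. Its 5 genes had log2 fold changes between -6.36 and -2.73 and edgeR adjusted p-values up to 0.0114. They summed to 9.03 and 6.60 CPM in AgBi, against 116.6 and 76.3 CPM in Ag. The same 5 genes summed to between 40.8 and 147 CPM in all Callus, Callus+AM, AgTi and AMT+Hb libraries, and to between 2.40 and 9.43 CPM in all Seedling, AMT+Ab and PB libraries. AgBi thus stood with the low set of groups at this place and Ag with the high set. On the same chromosome a run of 6 genes, LOC_Os01g62770 to LOC_Os01g62820, was higher in AgBi, at 219 and 337 CPM in sum against 57.2 and 74.2 CPM in Ag. Of the 6, LOC_Os01g62810 had the highest log2 fold change, at 69.8 and 115.7 CPM in AgBi against 0.954 and 0.402 CPM in Ag (log2 fold change 7.11, SE 0.67, edgeR adjusted p = 0.000149). Neighbouring genes can be near-identical copies or overlap, and whether the counting used strand is not given in the sources used here, so reads of such neighbours could not be told apart.

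The libraries of a group differed from each other at many genes as well. Among genes reaching 1 CPM in either library of the group, 283 differed by more than 10-fold between the AgBi libraries, 120 higher in replicate 1 and 163 higher in replicate 2. Between the Ag libraries 436 genes differed by as much, and 419 of these were higher in Ag replicate 1. Among genes reaching 1 CPM in any AgBi or Ag library, the group means were more than 10-fold apart at 772. AgBi was higher at 493 of these. This compares means, whereas the counts within a group compare single libraries. As shares of tested genes, the 3 sets were 1.07% within AgBi, 1.65% within Ag and 2.93% between the means. Of the 283 genes that split the AgBi libraries, 96 were called higher in AgBi and 0 lower, beside 12.4% and 12.9% of all tested genes. Of the 436 genes that split the Ag libraries, 8 were called, 4 in each direction, beside 25.3% of all tested genes. Each set was chosen by the level and the spread in its own group, which also enter the test. Their calls are therefore descriptions.

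Single genes show the size of these differences. LOC_Os03g14180 on chromosome 3 was at 0.226 and 518 CPM in AgBi replicates 1 and 2, against 0.579 and 0.536 CPM in Ag replicates 1 and 2. LOC_Os01g04370 on chromosome 1 was at 0.226 and 120.5 CPM in AgBi, against 0.409 and 0.402 CPM in Ag. In both, AgBi replicate 1 was below the Ag libraries, yet the genes were called higher (edgeR adjusted p = 0.0139 and 0.0119), so these calls rested on AgBi replicate 2. LOC_Os10g05790 on chromosome 10 was at 6.70 and 0.101 CPM in AgBi, against 0.0341 and 0 CPM in Ag, and LOC_Os04g35030 on chromosome 4 was at 51.0 and 1.08 CPM in AgBi, against 4.09 and 26.6 CPM in Ag. The first of these was called higher (edgeR adjusted p = 0.0256) and the second, whose groups overlapped, was not (edgeR adjusted p = 0.723).

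Within Ag, LOC_Os05g45180 on chromosome 5 was at 22.2 and 0.0804 CPM in replicates 1 and 2, with 2.33 and 1.76 CPM in AgBi lying between them. LOC_Os09g13650 on chromosome 9 was at 22.0 and 0.0268 CPM in Ag, with 10.9 and 9.06 CPM in AgBi, again between them. In the other direction, LOC_Os06g43150 on chromosome 6 was at 0.0681 and 8.71 CPM in Ag replicates 1 and 2, with 0.226 and 0 CPM in AgBi. LOC_Os12g06660 on chromosome 12 was at 0.102 and 7.85 CPM in Ag, with 1.02 and 0.372 CPM in AgBi. None of these 4 genes was called, with edgeR adjusted p-values between 0.187 and 0.966.

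The levels of the called genes in the other 7 groups place AgBi and Ag among them. These medians share the AgBi and Ag libraries with the choice of genes, which by itself sets AgBi above Ag for the first list and below it for the second, so no test is given. Calls in both directions also moved with gene length, as given above, and the part of length in this placing was not tested. Over the 3280 genes called higher, the median level in log2(CPM + 0.1) was 5.62 in AgBi, 5.34 in PB, 5.24 in Seedling, 4.86 in Callus, 4.67 in AMT+Ab, 4.50 in Callus+AM, 4.25 in AgTi, 4.15 in AMT+Hb and 4.02 in Ag. Over the 3404 genes called lower, it was 2.08 in AgBi, 2.24 in PB, 2.64 in Seedling, 2.86 in Callus, 3.13 in AMT+Ab, 3.27 in Callus+AM, 3.41 in AMT+Hb, 3.47 in AgTi and 3.78 in Ag. The group medians over all tested genes lay between 2.88 in Seedling and 3.20 in Callus+AM. Across all tested genes, the Spearman correlations placed Seedling farther from AgBi than Callus or PB. AgBi replicate 1 stood at 0.9194 and 0.9148 with Seedling, 0.9331 and 0.9356 with Callus, and 0.9358 and 0.9355 with PB. For AgBi replicate 2 these were 0.9022 and 0.883, 0.9188 and 0.9184, and 0.9551 and 0.9433.

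**Figure D5:**
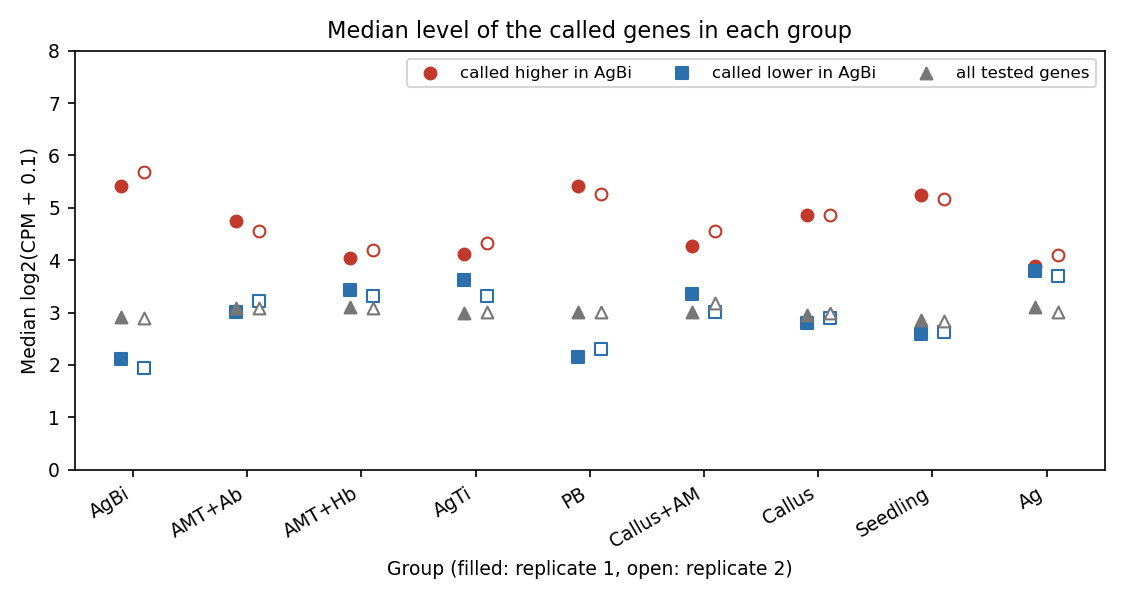
Median level in log2(CPM + 0.1) of the genes called higher in AgBi (red circles), called lower in AgBi (blue squares) and of all tested genes (grey triangles) in each group, with replicate 1 filled and replicate 2 open. For the called genes, PB and Seedling lie nearest to AgBi, and AgTi and AMT+Hb nearest to Ag.

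Single genes followed the same placing only in part. LOC_Os08g06110 averaged 487 ± 89.0 CPM in AgBi (SD, n = 2), against 2.60 ± 0.643 CPM in Ag (SD, n = 2). Its libraries were at 1158 and 1500 CPM in Seedling and between 226 and 361 CPM in AMT+Ab and PB. They were at 30.9 to 40.1 CPM in Callus, 3.49 and 31.8 CPM in Callus+AM, 4.50 and 7.41 CPM in AMT+Hb and 1.95 and 3.01 CPM in AgTi, where the AgTi and Ag libraries overlapped. LOC_Os04g55710 averaged 160 ± 10.6 CPM in AgBi, against 2504 ± 226 CPM in Ag (SD, n = 2 each), and AgBi was not separated from Callus, whose libraries were at 114 and 237 CPM. AgBi was not separated from Callus+AM either, at 1864 and 111 CPM in replicates 1 and 2. LOC_Os11g38160, at 0.226 and 0.304 CPM in AgBi, was also low in Seedling, at 0.145 and 0.132 CPM, and in Callus, at 0.749 and 0.842 CPM. LOC_Os02g15930 and LOC_Os03g16030 were at 1165 and 589 CPM and at 736 and 490 CPM in PB replicates 1 and 2, levels near or above those of AgBi replicate 2, and at 88.6 and 22.1 CPM and at 344 and 38.4 CPM in Seedling replicates 1 and 2, above AgBi replicate 1. They were below 9 CPM in all AMT+Ab, AMT+Hb, AgTi, Callus and Callus+AM libraries.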

How the data were processed

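RNA-seq of rice leaves was analysed for 18 libraries in 9 groups of 2. The authors deposited estimated counts per gene, of which 0.707% were not whole, and FPKM values. Per the submitters' processing notes, TopHat, Cuffnorm and Cuffdiff were among the tools. No source used here gives the genome build, the strand setting or the tools' options. Bisulfite samples were not used here.

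Deposited counts were rounded and analysed with edgeR 4.0.16 in R 4.3.3. filterByExpr by group left 26374 of 55986 genes. After TMM scaling, a robust quasi-likelihood model with group means as coefficients used all libraries (9 residual degrees of freedom) and AgBi was tested against Ag. Calls are at an adjusted p below 0.05 over all tested genes. SEs come from the F statistics, and n counts libraries, whose spread may be technical. The libraries of a group differed beyond counting noise (chi-square per degree of freedom 192 in AgBi and 169.5 in Ag, where 1 is expected of counting alone). They were thus not copies of the same counts. Whether they came from separate plants cannot be told from this, since repeat preparations of 1 RNA can also differ beyond counting noise. Relative length is the median over libraries of deposited counts over deposited FPKM. Over 10147 well-counted genes (200 counts or more in each library), 84.9% to 93.9% of each library's ratios lay within 1% of it.

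Genes named by rule have a mean log2 CPM of at least 1, adjusted p below 0.05, no overlap between groups and the largest absolute log2 fold changes, 2 in each direction. For replicate differences, they have the largest fold between libraries, 2 in each direction. The comparison, rules and alternatives were chosen with earlier results of these data known. The lists of gene symbols set down in the design could not be applied, because identifiers are not paired with names. Tests were tried on simulated data. Alternatives were relative log expression factors, no filter, DESeq2 1.42.0, limma 3.58.1 on log2(FPKM + 1) with a mean FPKM minimum of 1, other sets of libraries, a replicate block and a test against 1.5-fold.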

Additional observations from a re-analysis of the deposited data

How the results depend on the processing

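All 6684 calls kept their direction wherever an alternative called them. The count was 2395 with only AgBi and Ag in the fit (2 residual degrees of freedom), of which 2203 were among the original calls, and 3566 against 1.5-fold. It ranged from 2877 to 5094 when 1 library was left out. The share of called genes that were higher, 49.1%, was 52.5% with relative log expression factors, 52.97% without a filter, 52.1% with only these groups, 53.1% with DESeq2, 52.4% with limma and 51.8% with the length offset, and 42.5% to 52.9% with 1 library left out. Runs of neighbouring genes numbered 8, against 4 without a filter, 2 with only these groups, 2 against 1.5-fold, 20 with DESeq2 and 1 to 4 with 1 library left out. The length gap of 0.77 was 0.14 with the length offset, which is built to reduce it, and 0.42 to 1.07 with 1 library left out. The range of chromosome medians, 0.127, was 0.063 to 0.143 with 1 library left out. For other shifts the cause was not tested.

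The replicate block gave 5970 calls, 5917 of them shared. Deviations of AgBi replicate 1 and Ag replicate 1 from their group means correlated at 0.0314 across genes. The labels do not say that a number marks a shared plant or day. Whether libraries of the same number share more than that number is therefore not known. For the 10 genes described by level, 106 alternative values kept the side of the threshold and 13 lost the call, among them LOC_Os01g41710 without a filter (edgeR adjusted p = 0.0586). LOC_Os01g19850 was not tested by limma. Folds on log2(FPKM + 1) understate low genes.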
